A study of Rattus norvegicus with 18 samples.

Results

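Zfp genes are rodent genes named for zinc finger proteins, and 167 of them were expressed in untreated H9C2 cells of this series. H9C2 is a rat line derived from embryonic heart. The genes were taken as every protein-coding gene whose symbol starts with Zfp and a number and whose deposited FPKM was at least 1 in all 3 untreated libraries (group NC). FPKM counts sequenced fragments relative to gene length and to a term for each library. By this rule 167 of 288 protein-coding Zfp genes were kept, out of 32545 genes in the file. The members nearest the limit had smallest untreated values of 1.0005 FPKM (Zfp28), 1.003 (Zfp296) and 1.014 (Zfp202), and the nearest genes outside had 0.994 (Zfp169), 0.969 (Zfp719) and 0.949 (Zfp866).

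The 18 poly(A) RNA libraries fall into 6 groups of 3. ES10 and ES50 cells were given 10 or 50 electric pulses, each lasting 100 µs, at a field of 1500 V/cm. An agent that the labels name only PE was given to P cells at 50 µmol/L for 48 h, and P_ES10 and P_ES50 cells had PE first and then the 10 or 50 pulses. NC cells had neither pulses nor PE. The study concerns damage to heart muscle cells and their mitochondria by such pulses. All groups are the same cell line, so no group holds primary heart muscle. Of 12 heart muscle markers, 5 reached 1 FPKM in all NC libraries (Gata4, Nppb, Pln, Tnni3 and Tnnt2), while Actn2, Myh6, Myh7, Nkx2-5, Ryr2 and Tbx5 were below 0.1 FPKM in the NC libraries. Fibroblast markers (4 of 6) and smooth muscle markers (4 of 4) reached 1 FPKM there, as did 2 of 6 skeletal muscle markers (Des and Myod1), and no endothelial or blood marker did.

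Most Zfp proteins are C2H2 zinc finger proteins, in which each finger is folded around a zinc ion and a row of fingers reads a stretch of DNA. Many also carry a KRAB domain, which recruits the corepressor Trim28 and through it the histone methyltransferase Setdb1 and HP1 proteins, and so silences transposable elements and other targets. The symbol does not mark a single function, however, and the label of transcription factor does not hold for all 167. Zfp36 (tristetraprolin) and Zfp36l1 have CCCH fingers that bind AU-rich elements in mRNA and bring in the Ccr4-Not deadenylase. Zfp207 (BuGZ) acts on the mitotic spindle, Zfp598 is a ubiquitin ligase at collided ribosomes, Zfp91 is a ubiquitin ligase, and Zfp346 binds double-stranded RNA. These roles are known from human and mouse work. In the family column of the deposited table, 39 members were entered as KRAB, 37 as zf-C2H2, 13 as SCAN, 3 as BTB, 2 as zf-CCCH and 1 as zf-AD, and 72 had no entry.

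Reads assigned to genes, back-calculated from FPKM and gene length, numbered 14004929 to 17247201 a library. Mitochondrial genes took 91.4% to 92.9% of them in ES50 libraries, 46.7% to 49.6% in P_ES50 libraries and 5.41% to 14.0% in the other 12. Reads on nuclear genes were therefore 1230554 to 1466851 in ES50 libraries, 7813779 to 8060502 in P_ES50 libraries and at least 12059244 elsewhere. The median Zfp gene had 20 to 23 reads in an ES50 library, 136 to 145 in a P_ES50 library and 219 to 274 in the others. Over tested genes with reads in all 18 libraries, the deposited FPKM had a median ratio to the geometric mean of 0.995 to 1.011 in each library. Every difference given here is relative to the median gene in this sense. The median of all tested genes need not be 0, and was -0.13 in ES50 versus ES10 and 0.09 in P_ES50 versus ES50. If reads are scaled to all reads on genes instead, the median of all tested genes moves by -2.45 on the log2 scale in ES50 versus ES10, by -0.80 in P_ES50 versus P and by -0.72 in P_ES50 versus P_ES10. Fewer cells and less RNA per cell cannot be told apart in such data. Nothing in the labels says that replicates came from separate cultures, so the p-values reflect only how far libraries of a group differ, possibly for technical reasons.

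Among untreated cells the most abundant members included several with roles outside transcription. Zfp207 was the highest, with 50.5, 47.6 and 43.6 FPKM in the NC libraries. Zfp771 had 39.8, 45.5 and 40.9 FPKM in the NC libraries, a range that overlaps with that of Zfp207. Next in order of the NC mean came Zfp91 (31.7 FPKM), Zfp36 (28.2), Zfp706 (26.4), Zfp598 (21.4), Zfp36l1 (20.3), Zfp347 (17.7), Zfp513 (17.2) and Zfp131 (15.5). The median member had 3.69 to 3.80 FPKM in an NC library, so most Zfp genes were low. The KRAB genes had a median of 2.30 FPKM over their NC means, against 4.33 FPKM for members without a family entry. Zfp genes together took 0.502% to 0.517% of the nuclear reads in NC libraries.

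The upstream 250 bases of 4 members are shown because these genes were among those that were higher after 10 pulses in cells with PE. They come from RefSeq with the GRCr8 build, 5′ to 3′ on the strand of the gene, and end at the base before the annotated start. They lie at chr1:92799109-92799358 on the minus strand (Zfp36), chr6:104668691-104668940 on the minus strand (Zfp36l1), chr17:970646-970895 on the plus strand (Zfp367) and chr1:173543634-173543883 on the plus strand (Zfp143). In the Rnor 6.0 build of the deposited file these genes span chr1:85380095-85382607 (Zfp36, ENSRNOG00000058388, plus strand), chr6:103308045-103313074 (Zfp36l1, ENSRNOG00000058646, minus strand), chr17:1652895-1672021 (Zfp367, ENSRNOG00000027234, minus strand) and chr1:174702373-174738126 (Zfp143, ENSRNOG00000010087, plus strand), and the strands of Zfp36 and Zfp367 are the opposite of those in GRCr8. Of other genes described at length, the spans are chr8:21511839-21523540 (Zfp266, ENSRNOG00000034037, minus strand), chr3:177078709-177089199 (Zfp512b, ENSRNOG00000015558, minus strand), chr9:81844138-81868086 (Zfp142, ENSRNOG00000022414, minus strand) and chr4:149877889-149882824 (Zfp637, ENSRNOG00000023065, plus strand). Capitals mark matches to the motifs named below them.
Zfp36: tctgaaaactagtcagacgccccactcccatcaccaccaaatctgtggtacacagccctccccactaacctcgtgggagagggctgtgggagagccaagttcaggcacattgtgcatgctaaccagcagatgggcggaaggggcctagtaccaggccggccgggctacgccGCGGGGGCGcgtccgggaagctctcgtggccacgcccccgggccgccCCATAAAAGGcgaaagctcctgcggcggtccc
Zfp36l1: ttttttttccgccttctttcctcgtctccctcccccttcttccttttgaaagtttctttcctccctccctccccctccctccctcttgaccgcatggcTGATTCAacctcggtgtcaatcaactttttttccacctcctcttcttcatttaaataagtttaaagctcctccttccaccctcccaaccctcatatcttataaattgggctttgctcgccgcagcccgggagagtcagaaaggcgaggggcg
Zfp367: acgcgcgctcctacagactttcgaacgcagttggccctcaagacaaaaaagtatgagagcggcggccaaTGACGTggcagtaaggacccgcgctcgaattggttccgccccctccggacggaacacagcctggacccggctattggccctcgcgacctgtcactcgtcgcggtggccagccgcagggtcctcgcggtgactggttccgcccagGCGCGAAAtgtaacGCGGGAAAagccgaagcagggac
Zfp143: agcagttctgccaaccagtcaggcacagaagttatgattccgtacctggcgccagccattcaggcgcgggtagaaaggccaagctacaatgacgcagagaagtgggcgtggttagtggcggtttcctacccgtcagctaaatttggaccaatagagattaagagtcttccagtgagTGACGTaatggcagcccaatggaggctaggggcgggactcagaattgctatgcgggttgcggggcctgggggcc

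The capitals in the Zfp36 promoter are an EGR1-type match (GCGGGGGCG, 79 to 71 bases before the start) and a CArG box match (CCATAAAAGG, 32 to 23 bases before it), the type of element bound by serum response factor. A CArG box was found in 1 of the 117 members with a single matched promoter and in 1.5% of 33469 promoters of this length. EGR1-type matches were found in 11 of the 117 (9.40%), against 4.29% of all promoters. The Zfp36l1 promoter had an AP-1-type match (TGATTCA), found in 7.69% of the 117 and in 6.34% of all promoters. Zfp367 and Zfp143 each had a CRE-type string (TGACGT, in 9.40% of the 117 and 6.95% of all promoters). Zfp367 also had the E2F-type strings GCGCGAAA and GCGGGAAA. These were found in 0.248% and 0.813% of all promoters, and in 0.855% and 2.56% of the 117. The strings searched, on both strands, were GCGNGGGCG (EGR1-type), TGANTCA (AP-1-type), TGACGT (which can overlap with the others), the CArG box, GCGCGAAA and GCGGGAAA, and the heat shock element, which was in 0 of the 117 and 0.663% of all promoters. The 117 included 8 of the members called higher in P_ES10 than in P and 7 of those called lower. EGR1-type matches were in 1 of the 8 and 1 of the 7 (Zfp266), and AP-1-type matches in 1 and 1 (Zfp771). TGACGT was in 2 of the 8 and 2 of the 7 (Zfp266 and Zfp386). The CArG box and each E2F-type string were in 1 of the 8 and 0 of the 7. A match is a string in a window and says nothing about binding in these cells.

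In cells with PE, 10 pulses were followed by higher Zfp36, Zfp36l1, Zfp367 and Zfp143 and by lower Zfp512b, Zfp513, Zfp266 and Zfp608. Zfp36 had 36.5, 33.9 and 34.5 FPKM in P_ES10 libraries, against 22.4, 20.8 and 19.6 FPKM in P libraries. All 3 P_ES10 libraries lay above all 3 P libraries. Its log2 difference of (FPKM + 1) was 0.72 ± 0.06 (SE, adjusted p = 1.3e-06, limma), a 1.67-fold mean level. Zfp36l1, its close relative, had 20.2, 20.4 and 21.7 FPKM in P_ES10 and 13.6, 13.9 and 13.9 FPKM in P libraries, which did not overlap (0.56 ± 0.08, adjusted p = 0.00010). Zfp36 is known as an immediate early gene, whose RNA appears soon after many kinds of stimulus. The time from the pulses to harvest is not given in the sources used here.

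Zfp367 had the largest increase among the 167 genes in this comparison. It had 7.19, 5.97 and 7.01 FPKM in P_ES10 libraries, against 2.98, 3.09 and 2.63 FPKM in P libraries, a 2.32-fold mean level (0.98 ± 0.15, adjusted p = 0.00023). Zfp143, an activator that binds the promoters of small nuclear RNA genes and many mRNA genes, had 4.75, 4.99 and 5.43 FPKM in P_ES10 and 3.23, 3.63 and 3.59 FPKM in P libraries (0.43 ± 0.09, adjusted p = 0.0021). Zfp46 (0.58 ± 0.13), the BTB gene Zfp131 (0.44 ± 0.08), Zfp207 (0.37 ± 0.05), Zfp91 (0.26 ± 0.05) and Zfp142 (0.24 ± 0.08) were also called higher. For these 5 genes too the P_ES10 libraries lay above the P libraries.

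Zfp512b, Zfp266 and Zfp513 were among the members that were lower in P_ES10 than in P. Zfp512b had 1.40, 1.40 and 1.44 FPKM in P_ES10 and 3.29, 2.43 and 2.66 FPKM in P libraries (-0.65 ± 0.16, adjusted p = 0.0086). Zfp266 had 4.48, 4.87 and 4.82 FPKM in P_ES10 and 7.25, 7.004 and 7.13 FPKM in P libraries (-0.51 ± 0.10, adjusted p = 0.0025). Zfp513 had 16.5, 14.5 and 14.2 FPKM in P_ES10 and 23.3, 21.5 and 23.8 FPKM in P libraries (-0.57 ± 0.08, adjusted p = 0.00015). No P_ES10 library reached the lowest P library for these 3 genes. Zfp608, Zfp94, Zfp318, Zfp710, Zfp386, Zfp574, Zfp512 and Zfp771 had log2 differences of -0.49 to -0.25.

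Counted over all members, 9 were higher and 11 lower in P_ES10 than in P, 20 of 167, with 147 not called. Of all 11917 tested genes, 22.9% were called, 13.2% higher and 9.66% lower. The members' shares of 5.39% higher and 6.59% lower lay below those of all genes. Most Zfp genes were low, and log2(FPKM + 1) understates changes of low genes. The part of expression level in these shares was not tested. The members' median was -0.07 and that of all tested genes 0.00. The number of calls depends on the spread used. The split was 15 higher and 52 lower when scaled to all reads on genes, and 8 and 17 when scaled to nuclear reads. Over all tested genes these splits were 1521 and 2875, and 1077 and 1672. The model pools the spread over all 18 libraries. With the ES50 libraries taken out of the model 58 members were called (21 higher and 37 lower), beside 4716 of all 11917 tested genes. With reads thinned to the smallest nuclear depth only 9 members were called, 6 higher and 3 lower, beside 1232 of 11883 tested genes. Calls lost there included those of Zfp266, Zfp608, Zfp46, Zfp143, Zfp207, Zfp318 and Zfp771. Further ones among the 11 decreases were lost too. Zfp512b was not called with a pseudocount of 0.1, and the call of Zfp771 was lost without P_ES10 replicate 1 or 3 or any P replicate.

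**Figure D1:**
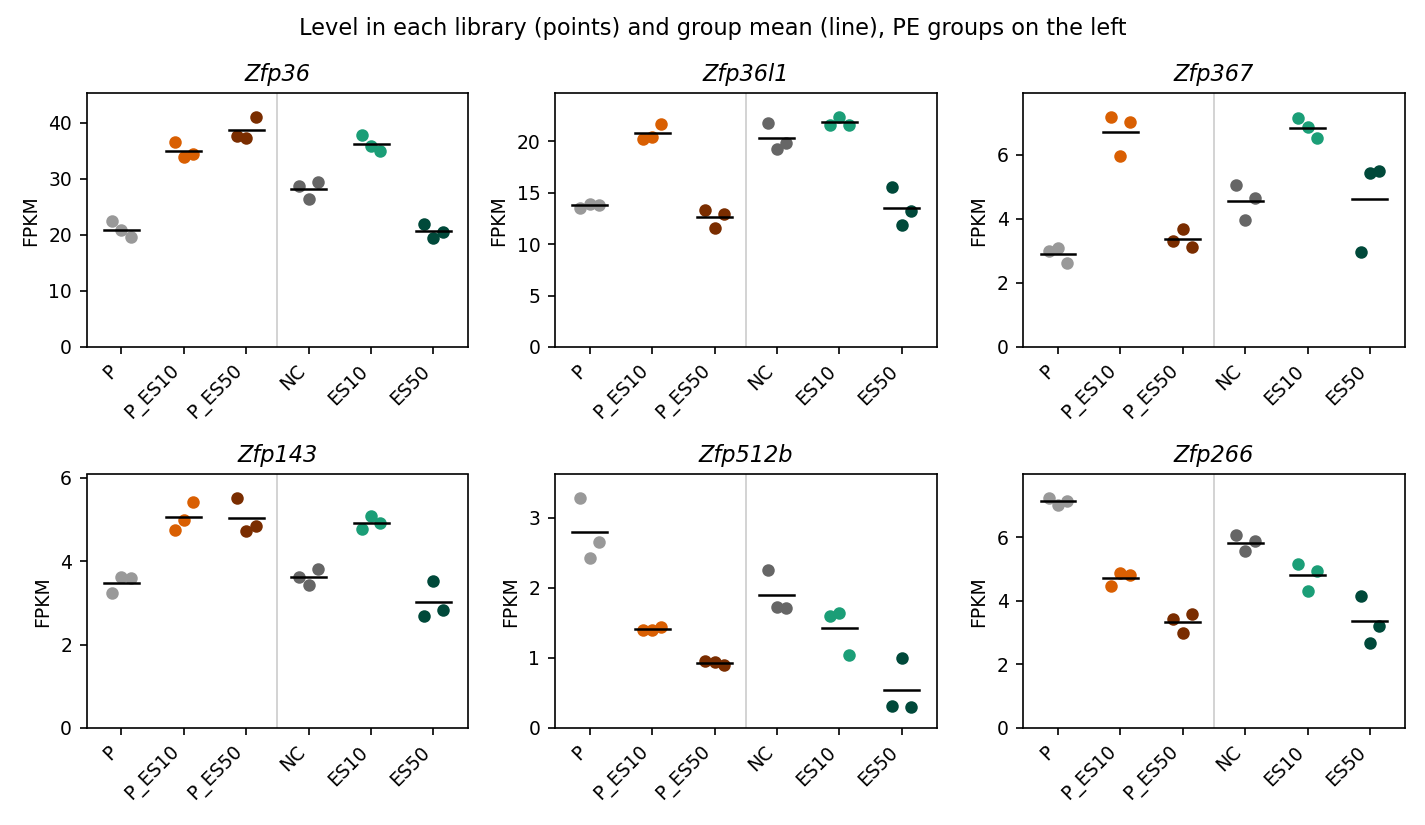
FPKM in each library (points, 3 per group) with the group mean (line) for 6 Zfp genes, in cells with PE (P, P_ES10, P_ES50) and without PE (NC, ES10, ES50), each on a linear axis from 0. Zfp36 stood at 33.9 to 36.5 FPKM in P_ES10, 37.3 to 41.1 FPKM in P_ES50 and 19.6 to 22.4 FPKM in P libraries. Zfp36l1 and Zfp367 were higher in P_ES10 than in P and near the P level in P_ES50 libraries, and Zfp36l1 in P_ES10 overlapped with NC.

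After 50 pulses in cells with PE, Zfp36 and Zfp143 were again above the cells with PE alone, while Zfp36l1 and Zfp367 were not called. P_ES50 and P_ES10 were each set against the same P libraries, so the values stand side by side and are not independent. Zfp36 had 37.6, 37.3 and 41.1 FPKM in P_ES50 libraries, against 22.4, 20.8 and 19.6 FPKM in P libraries (0.86 ± 0.06, adjusted p = 1.4e-07). Scaled to all reads on genes, its difference was -0.015, so this increase is one relative to the median gene. Zfp143 had 5.53, 4.72 and 4.85 FPKM in P_ES50 and 3.23, 3.63 and 3.59 FPKM in P libraries (0.43 ± 0.09, adjusted p = 0.0019), with no overlap. Zfp36l1 had 13.3, 11.6 and 12.9 FPKM in P_ES50 and 13.6, 13.9 and 13.9 FPKM in P libraries (-0.12 ± 0.08, adjusted p = 0.29).

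Zfp664 had 14.5, 9.03 and 13.4 FPKM in P_ES50 and 8.39, 8.07 and 7.14 FPKM in P libraries (0.56 ± 0.13, adjusted p = 0.0050). Smaller increases were called for Zfp287, Zfp672, Zfp593, Zfp358, Zfp330, Zfp553, Zfp706 and Zfp91 (0.18 to 0.37). Zfp593, a ribosome assembly factor, had 9.27, 8.65 and 8.62 FPKM in P_ES50 and 7.47, 6.82 and 7.14 FPKM in P libraries. The calls of Zfp672 and Zfp593 were lost without any 1 of the 6 libraries, those of Zfp358 without P_ES50 replicates 2 or 3 or P replicates 2 or 3, and that of Zfp287 without P_ES50 replicate 3 or P replicates 1 or 2. That of Zfp330 was lost without P_ES50 replicates 1 or 2 or P replicate 1, and that of Zfp91 without P_ES50 replicates 1 or 3 or P replicates 1 or 3. The 11 increases of this comparison were all differences relative to the median gene, and none was called higher when reads were scaled to all reads on genes.

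Among the decreases in P_ES50 versus P, Zfp512b, Zfp266 and Zfp608 were the largest. Zfp512b had 0.957, 0.938 and 0.902 FPKM in P_ES50 and 3.29, 2.43 and 2.66 FPKM in P libraries (-0.97 ± 0.16, adjusted p = 0.00038). Zfp266 had 3.43, 2.99 and 3.59 FPKM in P_ES50 and 7.25, 7.004 and 7.13 FPKM in P libraries (-0.91 ± 0.10, adjusted p = 1.4e-05). Zfp608 had 1.68, 1.18 and 1.36 FPKM in P_ES50 and 3.16, 3.58 and 3.76 FPKM in P libraries (-0.91 ± 0.10, adjusted p = 7.2e-06). All 3 genes had mean levels in P_ES50 cells that were 0.33-fold to 0.47-fold those in P cells. Zfp292 (-0.68 ± 0.10), Zfp94 (-0.67 ± 0.10), Zfp846 (-0.61 ± 0.18), Zfp386 (-0.58 ± 0.09) and Zfp318 (-0.50 ± 0.12), which mouse B cells need for IgD, were also lower. The call of Zfp846 was lost without P_ES50 replicates 1 or 2 or P replicates 2 or 3. The library term differed between these groups as well, and the mitochondrial share was 46.7% to 49.6% in P_ES50 against 5.41% to 5.597% in P libraries. Its part in these differences was not tested.

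In P_ES50 versus P, 28 of 167 members were called, 11 higher and 17 lower, and 139 were not. The background was 28.3% called of all tested genes (14.1% higher and 14.2% lower), against 6.59% higher and 10.2% lower among the members. The median of the members was -0.04, against -0.01 over all tested genes. Without the ES50 libraries in the fit 65 members were called, 26 higher and 39 lower, beside 5382 of all 11917 tested genes. With single P or P_ES50 libraries left out, 16 to 24 were called. The count was 18 without P_ES50 replicate 2, 18 without P_ES50 replicate 3, 16 without P replicate 2 and 18 without P replicate 3. The split was 18 higher and 18 lower after quantile normalization, 7 and 17 when scaled to nuclear reads, and 0 and 160 when scaled to all reads on genes. Over all tested genes these splits were 1584 and 1870, 1533 and 1779, and 90 and 10461.

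The pulse numbers were also compared in cells with PE. Of the genes higher in P_ES10 than in P, some were lower in P_ES50 than in P_ES10. Both comparisons use the same P_ES10 libraries, so the second is no separate support for the first. Zfp367 had 3.30, 3.68 and 3.13 FPKM in P_ES50 libraries, against 7.19, 5.97 and 7.01 FPKM in P_ES10 libraries (-0.82 ± 0.15, adjusted p = 0.00099). Zfp36l1 was lower by a similar size, with 13.3, 11.6 and 12.9 FPKM in P_ES50 and 20.2, 20.4 and 21.7 FPKM in P_ES10 libraries (-0.68 ± 0.08, adjusted p = 1.5e-05). For Zfp36 the difference was 0.14 ± 0.06 (adjusted p = 0.14), which was not called, although it was -0.65 and called when reads were scaled to all reads on genes. Zfp347 (-0.60 ± 0.07), Zfp46 (-0.60 ± 0.13), Zfp207 (-0.49 ± 0.05) and Zfp131 (-0.41 ± 0.08) were lower in P_ES50 than in P_ES10 as well. Zfp207 had 47.2, 46.9 and 49.2 FPKM in P_ES50 and 69.8, 65.9 and 67.0 FPKM in P_ES10 libraries.

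Members that were higher in P_ES50 than in P_ES10 included Zfp691 (0.60 ± 0.18), Zfp52 (0.58 ± 0.15), Zfp287 (0.49 ± 0.12) and Zfp771 (0.46 ± 0.08). Zfp771 had 44.9, 50.2 and 49.2 FPKM in P_ES50 and 35.0, 36.8 and 32.5 FPKM in P_ES10 libraries, and its difference was -0.33 when scaled to all reads on genes. Leaving out P_ES50 replicate 2 ended the calls of Zfp691 and Zfp52, leaving out P_ES50 replicate 3 that of Zfp287, leaving out P_ES10 replicate 1 that of Zfp691, and leaving out P_ES10 replicate 2 those of Zfp691 and Zfp287. In all, 11 members were higher and 14 lower, 25 of 167 (15.0%), against 23.4% of all tested genes (10.5% higher and 12.9% lower). The split was 15 higher and 11 lower after quantile normalization, 14 and 11 when scaled to nuclear reads, and 0 and 156 when scaled to all reads on genes. Over all tested genes these splits were 1439 and 1561, 1650 and 1196, and 55 and 10348.

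Without PE, 50 pulses gave the widest spread of Zfp levels. The lower and upper quartiles of the members were -0.76 and 0.18 in ES50 versus ES10. Those of all tested genes were -0.82 and 0.57, a wider range, so this spread is not particular to Zfp genes. Zfp142, Zfp654 and Zfp217 were far lower in ES50 than in ES10 libraries, and Zfp637, Zfp580 and Zfp358 were higher relative to the median gene. Zfp142 had 2.52, 3.48 and 2.68 FPKM in ES50 libraries, against 14.4, 15.2 and 15.7 FPKM in ES10 libraries, a 0.19-fold mean level (-2.05 ± 0.08, adjusted p = 3.0e-12). Zfp217, a partner of the CoREST repressor complex, had 1.34, 1.64 and 0.690 FPKM in ES50 and 7.10, 7.98 and 6.38 FPKM in ES10 libraries (-1.89 ± 0.13, adjusted p = 2.4e-09). Zfp654 had 0.789, 1.55 and 0.994 FPKM in ES50 and 6.71, 6.37 and 7.31 FPKM in ES10 libraries (-1.90 ± 0.13, adjusted p = 2.4e-09). No ES50 library came near an ES10 library for these genes, yet the ES50 values of Zfp217 and Zfp654 rest on 33 and 14 reads over the 3 libraries.

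Zfp347 had 5.43, 6.10 and 6.10 FPKM in ES50 and 20.2, 18.8 and 20.2 FPKM in ES10 libraries (-1.59 ± 0.07). Zfp646 (-1.56 ± 0.12) and Zfp394 (-1.52 ± 0.18) followed. Zfp626 and Zfp780b had 0 reads in all ES50 libraries, while they had 2.02, 2.61 and 2.67 FPKM (Zfp626) and 1.76, 2.95 and 2.66 FPKM (Zfp780b) in ES10 libraries. With a floor of 3 reads over the ES50 group, Zfp626 was at least 4.40-fold lower and Zfp780b at least 1.83-fold lower in ES50 than in ES10, by counting error only. The deposited gene model of Zfp780b is 311 bases long, and that of Zfp626 is 753 bases.

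Among the increases, Zfp524, Zfp637 and Zfp580 were the largest. Zfp637 had 28.1, 42.2 and 32.9 FPKM in ES50 libraries, against 10.1, 9.04 and 10.9 FPKM in ES10 libraries, a 3.43-fold mean level (1.67 ± 0.13, adjusted p = 1.4e-08). Zfp358 had 19.5, 20.01 and 22.0 FPKM in ES50 and 6.85, 7.35 and 7.58 FPKM in ES10 libraries (1.38 ± 0.09, adjusted p = 9.6e-10). Zfp524, whose human counterpart binds telomere repeats, had 8.16, 13.8 and 15.8 FPKM in ES50 and 2.16, 3.04 and 3.15 FPKM in ES10 libraries (1.81 ± 0.20, adjusted p = 8.9e-07). Zfp580 (1.61 ± 0.16), Zfp717 (1.22 ± 0.16), Zfp664 (1.22 ± 0.13), Zfp365 (1.13 ± 0.12) and Zfp523 (0.98 ± 0.13), a paralog of Zfp143, completed the 8 largest. Scaled to all reads on genes, each of these 8 genes was lower in ES50 than in ES10, by 0.84 to 1.92 on the log2 scale.

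**Figure D2:**
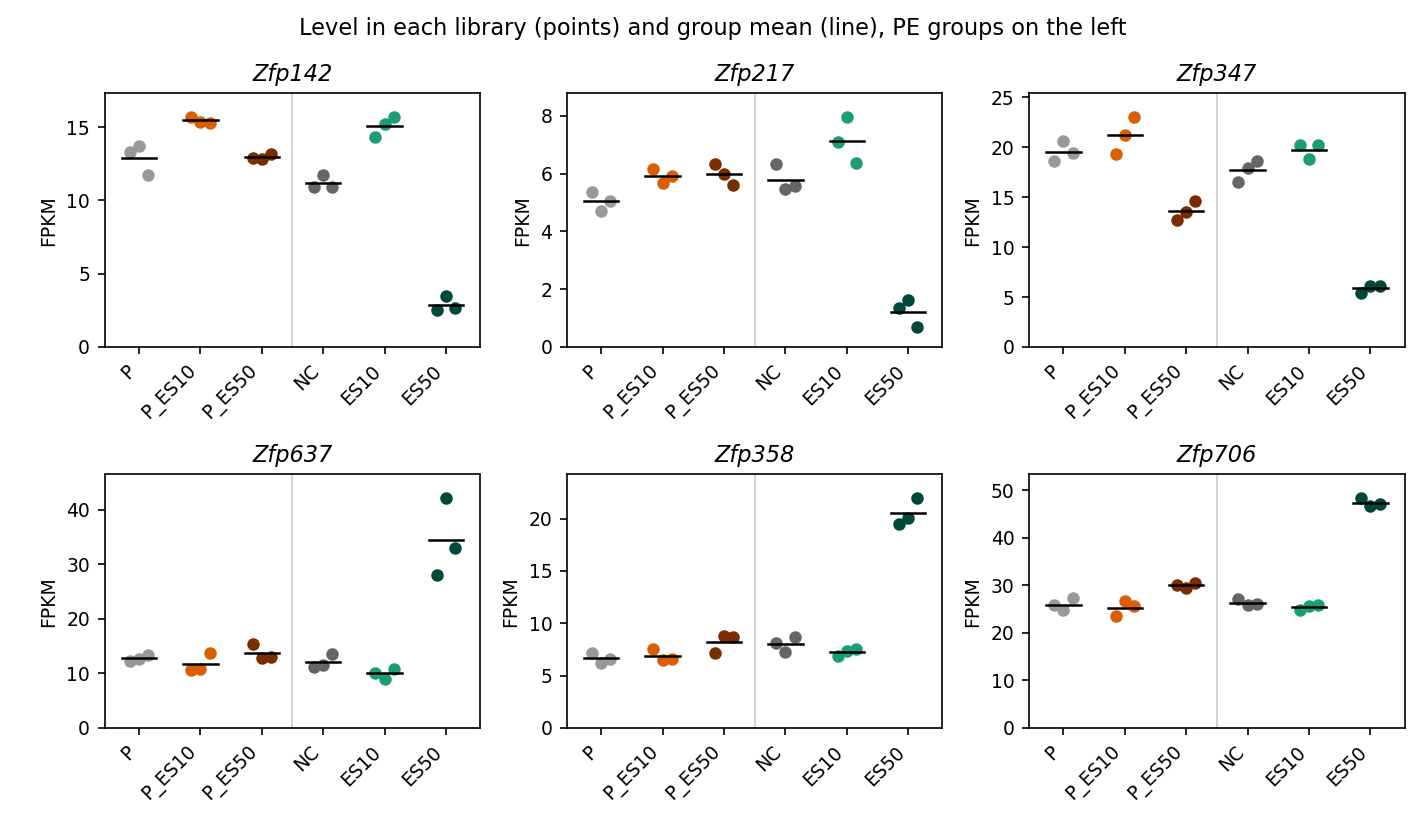
FPKM in each library (points, 3 per group) with the group mean (line) for 6 Zfp genes that differed between ES50 and ES10, each on a linear axis from 0. Zfp142 stood at 2.52 to 3.48 FPKM in ES50 and at 14.4 to 15.7 FPKM in ES10 libraries, and Zfp637 at 28.1 to 42.2 FPKM in ES50 and at 9.04 to 10.9 FPKM in ES10 libraries, where the ES50 increases hold relative to the median gene and turn to decreases when scaled to all reads on genes.

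In all, 31 members were higher and 77 lower in ES50 than in ES10 relative to the median gene, against 56 higher and 48 lower after quantile normalization and 0 higher and 167 lower when scaled to all reads on genes. The background was 74.3% of all tested genes, 33.0% higher and 41.3% lower, beside 18.6% of members higher and 46.1% lower. Of the 11917 tested genes, 4639 were higher and 3983 lower after quantile normalization. The split was 36 and 11479 when scaled to all reads on genes. The members' median was -0.26, against -0.13 for all tested genes and -0.09 for the 9856 protein-coding genes with the same floor in NC. After quantile normalization the members' median was 0.09 and that of all tested genes 0.08, and 53.8% of the members called were higher. Zfp genes took 0.412% to 0.419% of nuclear reads in ES50 and 0.493% to 0.501% in ES10 libraries. Summed over their lists, fibroblast markers had 547 to 574 FPKM in ES50 and 2462 to 2758 FPKM in ES10 libraries, and smooth muscle markers 5420 to 5647 FPKM in ES50 and 2274 to 2373 FPKM in ES10 libraries. Heart muscle markers summed to 51.3 to 59.9 FPKM in ES50 and 18.8 to 22.3 FPKM in ES10 libraries, and skeletal muscle markers to 73.9 to 83.5 FPKM in ES50 and 67.8 to 71.7 FPKM in ES10 libraries. These sums are relative to the median gene, none of the 4 overlapped between the groups, and their part in the Zfp differences was not tested. Of the members, 3 to 6 had 0 reads in an ES50 library and none had 0 reads in any other library.

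A list of Zfp genes with roles outside classical transcription control, or with other named roles, had 25 tested genes. The list as such had to pass only the filter of 1 FPKM in at least 3 libraries, which may be those of 1 group. Of these, 5 were higher and 15 lower in ES50 than in ES10, against 7 and 12 after quantile normalization and 0 and 25 when scaled to all reads on genes. Their median was -0.56, against -0.13 for all tested genes (33.0% called higher and 41.3% lower), and after quantile normalization it was -0.30, against 0.08 for all tested genes. Zfp706, which in mouse stem cells represses Klf4, had 48.5, 46.7 and 47.1 FPKM in ES50 and 24.9, 25.6 and 25.9 FPKM in ES10 libraries (0.87 ± 0.05). Zfp91 had 40.2, 39.8 and 45.7 FPKM in ES50 and 35.5, 34.6 and 33.7 FPKM in ES10 libraries (0.27 ± 0.05). Zfp385a (0.98 ± 0.09), Zfp277 (0.81 ± 0.11) and Zfp346 (0.45 ± 0.12) were the others that were higher relative to the median gene, and all 5 were lower when scaled to all reads on genes. Zfp207 had 29.6, 28.4 and 26.8 FPKM in ES50 and 56.0, 54.3 and 53.8 FPKM in ES10 libraries (-0.93 ± 0.05). Zfp598 had 12.7, 12.2 and 10.8 FPKM in ES50 and 23.3, 25.6 and 25.6 FPKM in ES10 libraries (-1.01 ± 0.07). Zfp36 (-0.78 ± 0.06) and Zfp36l1 (-0.66 ± 0.08) were lower in ES50 than in ES10 as well.

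**Figure D3:**
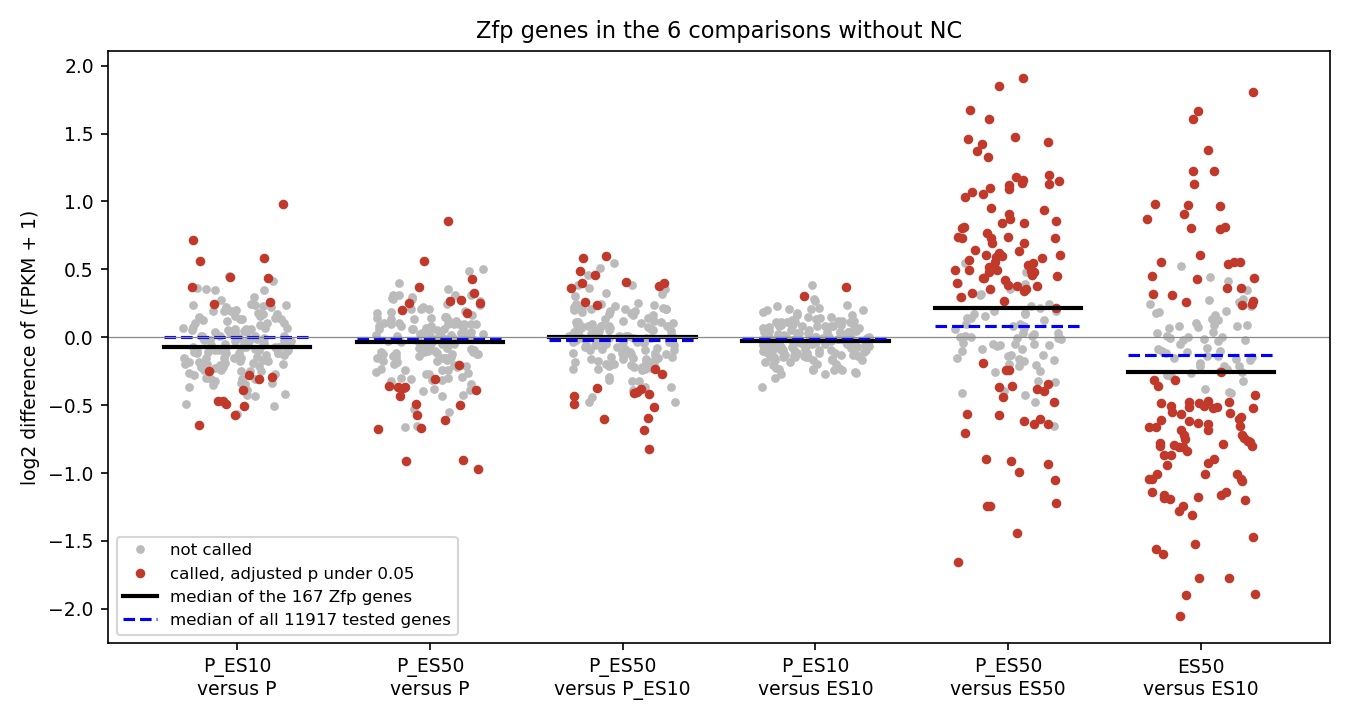
Log2 difference of (FPKM + 1) for each of the 167 Zfp genes (points, red where adjusted p is under 0.05) in the 6 comparisons without NC, with the median of the members (black line) and of all 11917 tested genes (dashed blue line). The points spread from -2.05 to 1.81 in ES50 versus ES10 and from -0.65 to 0.98 in P_ES10 versus P, and the member median of ES50 versus ES10 is -0.26 here (-0.13 for all tested genes) but 0.09 after quantile normalization (0.08 for all tested genes).

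PE and pulses were also compared at the same pulse number. With 10 pulses, 2 members were higher in P_ES10 than in ES10 and 0 were lower, against 1.8% of all tested genes (0.688% higher and 1.12% lower). These were Zfp207, with 69.8, 65.9 and 67.0 FPKM in P_ES10 and 56.0, 54.3 and 53.8 FPKM in ES10 libraries (0.30 ± 0.05, adjusted p = 0.0068), and Zfp386 (0.37 ± 0.09, adjusted p = 0.048). The call of Zfp386 was lost when any 1 of the 6 libraries was left out. Zfp36 had 36.5, 33.9 and 34.5 FPKM in P_ES10 and 37.7, 35.8 and 35.0 FPKM in ES10 libraries (-0.05 ± 0.06, adjusted p = 0.91), values that overlap.

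With 50 pulses the same pair of conditions differed widely. In P_ES50 versus ES50, 74 members were higher and 27 lower relative to the median gene, against 44 higher and 51 lower after quantile normalization and 167 higher when scaled to all reads on genes. The background was 69.6% of all tested genes, 37.7% higher and 31.9% lower. Of the 11917 tested genes, 3673 were higher and 4358 lower after quantile normalization. The split was 11107 and 35 when scaled to all reads on genes. Zfp142 had 12.9, 12.9 and 13.2 FPKM in P_ES50 libraries, against 2.52, 3.48 and 2.68 FPKM in ES50 libraries (1.85 ± 0.08, adjusted p = 1.4e-11). Zfp36 had 37.6, 37.3 and 41.1 FPKM in P_ES50 and 22.0, 19.4 and 20.6 FPKM in ES50 libraries (0.87 ± 0.06, adjusted p = 7.1e-09). Zfp36l1 was not called by the test, at 13.3, 11.6 and 12.9 FPKM in P_ES50 and 15.5, 11.8 and 13.3 FPKM in ES50 libraries (adjusted p = 0.32), but its difference was 2.17 when scaled to all reads on genes. Zfp637 had 15.4, 12.8 and 13.1 FPKM in P_ES50 and 28.1, 42.2 and 32.9 FPKM in ES50 libraries (-1.25 ± 0.13, adjusted p = 5.5e-07), but its difference was 1.28 when scaled to all reads on genes. These groups differ in mitochondrial share and nuclear depth as well as in PE, and the part of either was not tested.

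The step between 10 and 50 pulses differed between cells with and without PE for 84 of 167 members, 61 with a higher step with PE and 23 with a lower one, against 59.6% of all tested genes (32.3% and 27.3%). After quantile normalization the split was 39 and 35, and with scaling to all reads on genes it was 164 and 0. Over all tested genes these splits were 3147 and 3594, and 10648 and 34. For Zfp217 the step was 0.01 ± 0.13 with PE and -1.89 ± 0.13 without PE, a difference of 1.91 ± 0.18 (adjusted p = 3.2e-07). For Zfp142 it was -0.24 ± 0.08 with PE and -2.05 ± 0.08 without PE. Zfp637 went the other way, with a step of 0.22 ± 0.13 with PE and 1.67 ± 0.13 without PE, a difference of -1.45 that was 1.01 when scaled to all reads on genes. The difference for Zfp36 was 0.92 ± 0.09 (adjusted p = 3.9e-07), while for Zfp36l1 it was -0.02 ± 0.11 (adjusted p = 0.90). Relative to the median gene, the step of Zfp36l1 was -0.68 with PE and -0.66 without PE, and a p that misses the threshold does not show that the steps are equal. Scaled to all reads on genes, its difference between steps was 2.18 (adjusted p = 6.6e-14), called and of the opposite sign.

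Comparisons with NC are a description, because the NC values chose the genes. Their medians were -0.02 in ES10 versus NC, -0.33 in ES50 versus NC and 0.02 in P versus NC, against 0.02, -0.13 and 0.00 over all tested genes, and the ES50 median was 0.04 after quantile normalization. Called members numbered 4 higher and 1 lower (ES10), 25 higher and 82 lower (ES50) and 2 higher and 6 lower (P), beside 6.36% and 2.21%, 31.9% and 40.1%, and 4.72% and 4.81% of all tested genes. In all, 8.57%, 72.0% and 9.53% of tested genes were called, and nothing is read from these counts. Zfp36 had 37.7, 35.8 and 35.0 FPKM in ES10, 22.0, 19.4 and 20.6 FPKM in ES50, 22.4, 20.8 and 19.6 FPKM in P and 28.8, 26.3 and 29.5 FPKM in NC libraries. Zfp36l1 stood at 13.6, 13.9 and 13.9 FPKM in P and at 21.8, 19.2 and 19.8 FPKM in NC libraries. The P_ES10 values of Zfp36l1 given above overlap with these NC values. Zfp367 stood at 2.98, 3.09 and 2.63 FPKM in P and at 5.05, 3.95 and 4.65 FPKM in NC libraries. For these 3 genes the P libraries lay below the NC libraries.

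Set beside each other over the 167 genes, the differences after 10 pulses with PE (P_ES10 minus P) and without PE (ES10 minus NC) had a Pearson correlation of 0.74 and a Spearman correlation of 0.68, against 0.59 and 0.65 over all tested genes. The sign was the same in 125 of 167 genes and in 8934 of all 11917 tested genes, nearly the same share. After 50 pulses, the values with PE (P_ES50 minus P) and without PE (ES50 minus NC) had a Pearson correlation of 0.13 and a Spearman correlation of 0.10, against 0.37 and 0.33 over all tested genes. The sign was the same in 100 of 167 genes (59.9%) and in 62.4% of all tested genes. The 2 comparisons of each pair share no library, but genes are not independent replicates and no test was made. The 50-pulse values of low genes carry more counting noise, and its part in the lower correlation was not tested.

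**Figure D4:**
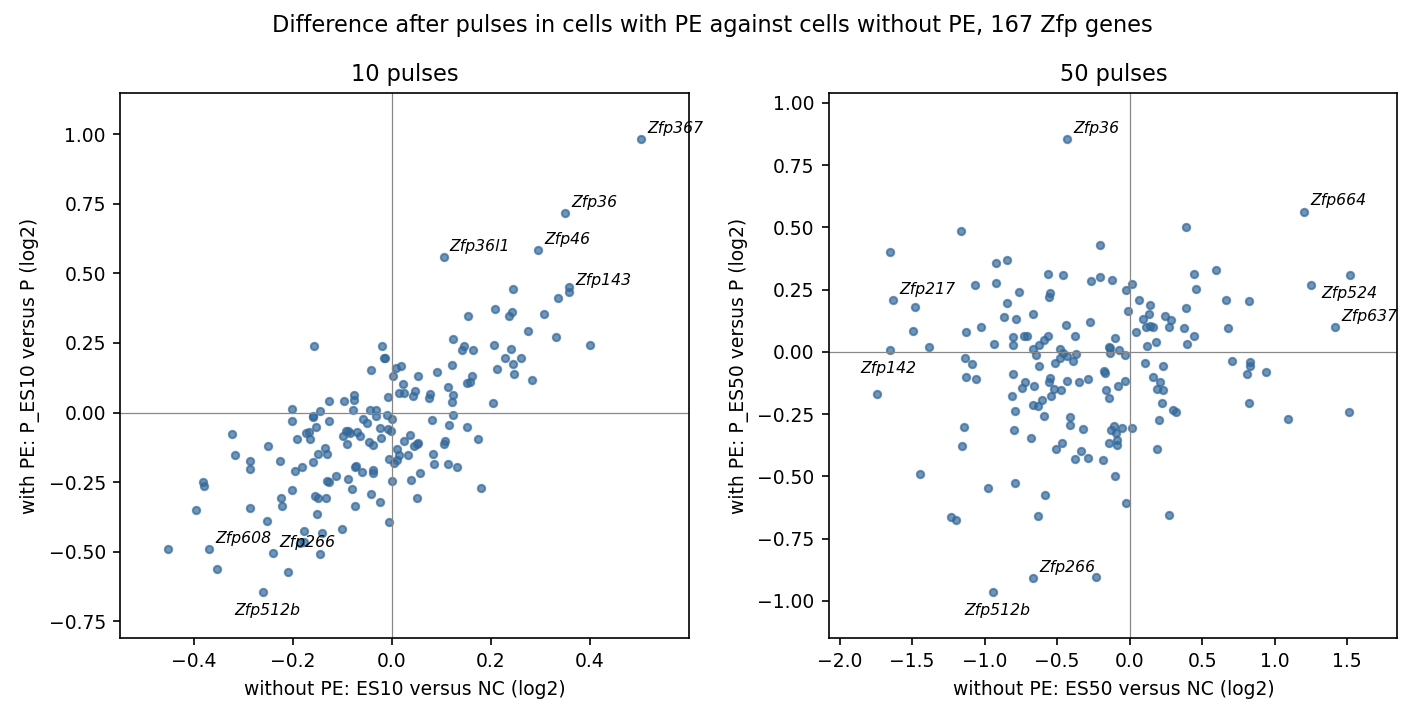
Log2 difference of (FPKM + 1) after pulses in cells with PE (vertical axis) against cells without PE (horizontal axis) for the 167 Zfp genes, at 10 pulses (left) and 50 pulses (right). The points follow a rising band at 10 pulses (Pearson correlation 0.74, against 0.59 over all tested genes) with Zfp367 and Zfp36 at its upper end, and form a wide cloud at 50 pulses (0.13, against 0.37), where Zfp36 is at 0.86 with PE relative to the median gene (-0.015 when scaled to all reads on genes).

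By the family column, the counts for ES50 versus ES10 stand beside 33.0% of all tested genes called higher and 41.3% lower. KRAB genes were called lower more often than higher in ES50 versus ES10 relative to the median gene, with 18 lower and 1 higher of 39 and a median of -0.36, but with 7 lower and 8 higher after quantile normalization and 39 lower when scaled to all reads on genes. Genes entered as zf-C2H2 were split, with 13 higher and 12 lower of 37 and a median of 0.09, against 21 and 9 after quantile normalization and 0 and 37 when scaled to all reads on genes. The largest class, the 72 members with no entry, had 15 higher and 36 lower and a median of -0.30, close to that of the KRAB genes, against 22 and 25 after quantile normalization and 0 and 72 when scaled to all reads on genes. The 13 SCAN genes had 2 higher and 6 lower, against 4 and 3 after quantile normalization and 0 and 13 when scaled to all reads on genes. In P_ES50 versus P, 6 of the 39 KRAB genes were lower and 0 higher, beside 14.2% and 14.1% of all tested genes, and this count was the same after quantile normalization, against 0 higher and 39 lower when scaled to all reads on genes. Differences between these families were not tested. Many KRAB genes lie in clusters of similar copies, and reads that match several copies may be split or lost in counting.

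Length and position were looked at as further features. The rank correlation of gene length with the ES50 minus ES10 difference was -0.15 over the members and -0.25 over all tested genes. The median difference was -0.08 in the 56 shortest gene models (311 to 2170 bases), -0.26 in the 55 of middle length and -0.49 in the 56 longest (3355 to 9966 bases). Of the 56 shortest, 37 had a length that is a multiple of 3, against 17 of the 55 of middle length and 17 of the 56 longest. These short models may hold only coding sequence. The share was 42.5% over all members and 41.6% over all tested protein-coding genes, and short genes outside the Zfp set were not counted apart. In the Rnor 6.0 build, 43 members lie on chromosome 1, and 28 members lie in 7 clusters of at least 3 with gaps under 200 kb. In a cluster on chromosome 1 (chr1:72338877-72468738) the ES50 minus ES10 differences of Zfp580, Zfp865, Zfp524 and Zfp628 ran from -0.47 to 1.81. In a cluster on chromosome 8 (chr8:21448618-21617736), which holds Zfp26, Zfp426, Zfp266 and Zfp846, the P_ES50 minus P differences ran from -0.91 to 0.06.

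**Figure D5:**
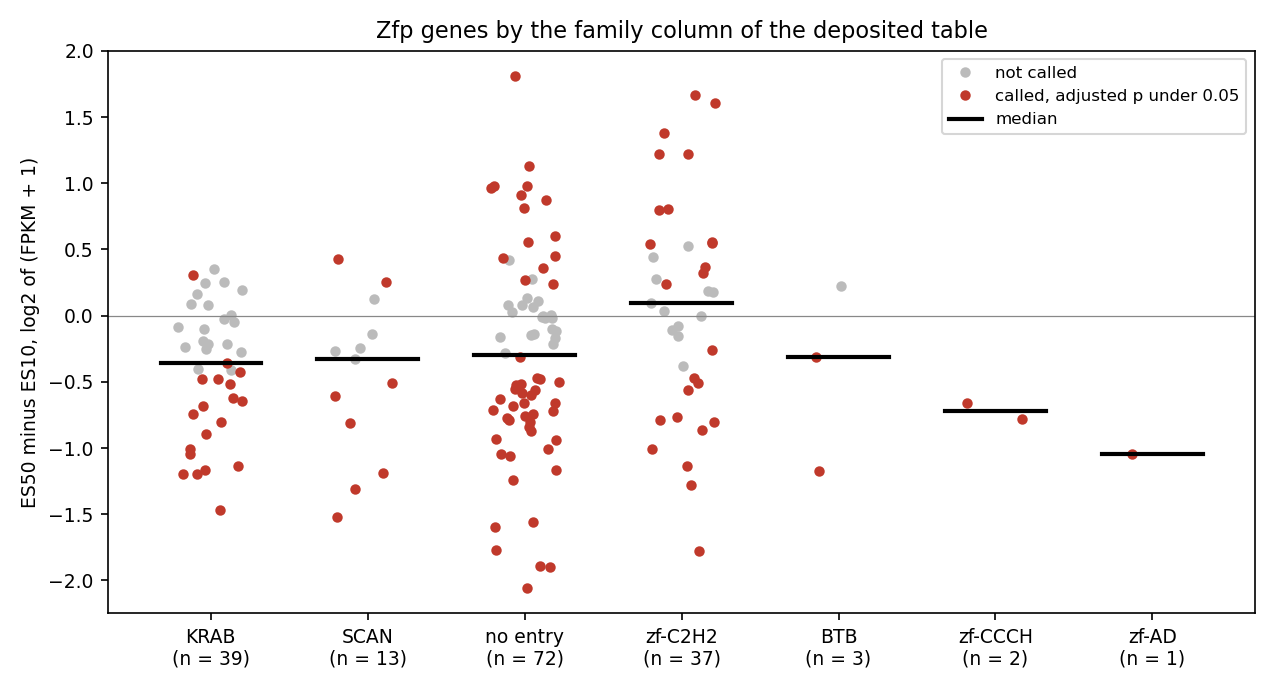
ES50 minus ES10 difference (log2 of FPKM + 1) for each Zfp gene (points, red where adjusted p is under 0.05), grouped by the family column of the deposited table, with the median of each group (line). KRAB genes have a median of -0.36 and zf-C2H2 genes of 0.09, values relative to the median gene that are 0.07 and 0.35 after quantile normalization.

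Partners of the KRAB and CCCH proteins were taken from lists. Genes of these lists had to pass only the filter of 1 FPKM in at least 3 libraries, as did all tested genes. A gene could pass it through the 1 group where it was high, so nothing is read from these counts. In P_ES50 versus P, 14.1% of all tested genes were called higher and 14.2% lower, and the counts below stand beside those shares. Of 21 tested genes of the KRAB corepressor machinery, 2 were higher and 5 lower in P_ES50 than in P, with a median of -0.08 against -0.01 for all tested genes. Atf7ip, which stabilizes Setdb1, had 3.30 ± 0.16 FPKM in P_ES50 and 6.88 ± 0.55 FPKM in P libraries (SD, n = 3 each; -0.87 ± 0.08, adjusted p = 2.5e-06, limma). Ehmt2, a histone H3 lysine 9 methyltransferase, had 18.9 ± 1.9 FPKM in P_ES50 and 27.3 ± 1.2 FPKM in P libraries, but 31.5 ± 0.8 FPKM in ES50 and 17.9 ± 0.5 FPKM in ES10 libraries. Of 27 tested deadenylation and decapping genes, 3 were higher and 4 lower in P_ES50 than in P, among them Edc4 (-0.47 ± 0.09) and Lsm1 (0.50 ± 0.10). Of 12 tested AU-rich element binding genes, 3 were higher and 2 lower there, among them Ybx1 (0.46 ± 0.06) and Tial1 (-0.48 ± 0.11). The increases in these lists hold relative to the median gene, and none was called higher when scaled to all reads on genes.

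Zinc finger genes with other names were counted in the same way. The limit of the filter given for the partner lists holds here too, and nothing is read from the counts of this paragraph. Of 55 tested C2H2 factors with names of their own, 17 were higher and 4 lower in P_ES10 than in P, beside 13.2% higher and 9.66% lower among all tested genes. The shares for P_ES50 versus P, which stand beside each count of that comparison in this paragraph, were 14.1% and 14.2%. In P_ES50 versus P, 10 were higher and 14 lower relative to the median gene, against 13 and 11 after quantile normalization and 1 and 48 when scaled to all reads on genes. Egr1, an immediate early factor, had 24.7 ± 3.0 FPKM in P_ES10 and 6.80 ± 1.17 FPKM in P libraries (SD, n = 3 each; 1.73 ± 0.14, SE), and 22.3 ± 0.8 FPKM in P_ES50 libraries (1.59 ± 0.14). Klf16 (0.56 ± 0.04) and Glis2 (-1.09 ± 0.12) had the smallest adjusted p in P_ES50 versus P beside Egr1. Of 33 tested Zbtb genes, 6 were higher and 2 lower in P_ES50 than in P (0 and 28 when scaled to all reads on genes), with Zbtb47 at -0.80 ± 0.12. Of 15 tested Zc3h genes, which have CCCH fingers, 4 were higher and 4 lower (0 and 14 when scaled to all reads on genes), with Zc3h12c at 0.64 ± 0.13. Of 10 tested SCAN genes with other names 0 were higher and 1 was lower (Zscan26, -0.39 ± 0.09), and the 1 tested gene with a Znf name, Znf740, was not called.

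The 121 protein-coding Zfp genes outside the rule were mostly near 0. Of these, 14 had 0 reads in all 18 libraries, 101 did not reach 1 FPKM in 3 libraries and were not tested, and 20 were tested. Some of the 20 passed that filter only through the group where they were high, so no count of calls is given for them. Zfp174, for example, had 1.18, 1.25 and 1.95 FPKM in ES50 and 0.513, 0.572 and 0.504 FPKM in ES10 libraries. Zfp458 passed through several groups, with at least 1 FPKM in all ES10, P_ES10 and P_ES50 libraries. It had 0, 0.116 and 0 FPKM in ES50 libraries, which rest on 1 read, and 1.93, 1.18 and 1.80 FPKM in ES10 libraries. Zfp36l3, a rodent relative of Zfp36, was not tested.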

How the data were processed

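Poly(A) RNA of 18 H9C2 libraries was measured. The authors deposited gene-level FPKM values in a single file, mapped to Rnor 6.0 per the submitters' processing notes; the sources used here do not give the aligner, counter, annotation release or strand setting. FPKM times gene length came in whole steps for all values (tolerance 0.01), from which reads were recovered. No other sample columns were left unused.

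Differences were tested with limma 3.58.1 (R 4.3.3, data.table version 1.17.8) on log2(FPKM + 1) of the deposited values, with an intensity trend. Genes with at least 1 FPKM in at least 3 libraries were kept (11917 of 32545). A single model of the 6 group means was fitted (12 residual degrees of freedom), with Benjamini-Hochberg adjustment over all tested genes and a threshold of 0.05. This scale understates changes of low genes. The code was tested on simulated data. Tables were made with pandas 2.3.3 and numpy 2.4.6 in Python 3.11.15, and figures with matplotlib 3.10.9. Alternatives were a pseudocount of 0.1, no filter, 3 other scalings, only the groups compared, a replicate block, limma voom on recovered reads, thinning to 1230554 nuclear reads, each library left out and, chosen after seeing the data, no ES50 libraries in the fit.

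The members and lists were chosen with earlier results of these data known. Genes named were the 8 largest called increases and decreases without overlap in ES50 versus ES10, P_ES50 versus P and P_ES50 versus ES50, up to 4 of each in other comparisons, the 10 most abundant in NC, members of the CCCH and other-roles lists, those nearest the limit, and, of each other list, the 3 with the smallest adjusted p in P_ES50 versus P. Zfp710, Zfp574, Zfp512, Zfp553, Zfp458, Zfp174 and others outside this rule were named after their values were seen. Of the 167 genes, 117 matched a single RefSeq promoter by symbol and 50 did not. The strands of Zfp36 and Zfp367 differ between Rnor 6.0 and GRCr8 and are given as RefSeq has them.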

Additional observations from a re-analysis of the deposited data

Results flagged for a closer look

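The step between 10 and 50 pulses differed by the interaction test between cells with PE and cells without PE for 61 members upward and 23 downward (limma, adjusted p under 0.05), relative to the median gene. Of all tested genes 59.6% were called, 32.3% upward and 27.3% downward, against 50.3%, 36.5% and 13.8% of the members. The part of expression level in these shares was not tested. After quantile normalization the members' split was 39 and 35. The difference was 2.14 ± 0.24 for Zfp780b (adjusted p = 1.6e-06), 1.91 ± 0.18 for Zfp217, 1.82 ± 0.11 for Zfp142 and 1.74 ± 0.27 for Zfp626. It was -1.77 ± 0.23 for Zfp580 (adjusted p = 9.4e-06), -1.45 ± 0.19 for Zfp637, -1.30 ± 0.29 for Zfp524 and -1.19 ± 0.23 for Zfp717. Zfp780b and Zfp626 had 0 reads in all ES50 libraries, so their fitted differences depend on the pseudocount and are no bounds.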

How the results depend on the processing

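Scaling to all reads on genes changed the counts of called members to 167 in ES50 versus ES10, 160 in P_ES50 versus P, 67 in P_ES10 versus P, 156 in P_ES50 versus P_ES10, 167 in P_ES50 versus ES50, 4 in P_ES10 versus ES10 and 164 for the difference between steps, against 108, 28, 20, 25, 101, 2 and 84 as reported. Of all 11917 tested genes this scaling called 11515, 10551, 4396, 10403, 11142, 478 and 10682, in the same order. The named values that changed sign did so under this scaling. In ES50 versus ES10 the log2 differences were Zfp524 -0.98, Zfp637 -1.55, Zfp580 -1.37, Zfp358 -1.70, Zfp717 -0.90, Zfp664 -1.92, Zfp365 -0.84, Zfp523 -1.43, Zfp771 -2.57, Zfp91 -3.03, Zfp706 -2.44, Zfp385a -2.01, Zfp277 -1.98, Zfp346 -1.50. In P_ES50 versus P the log2 differences were Zfp36 -0.015, Zfp664 -0.26, Zfp143 -0.31, Zfp287 -0.20, Zfp672 -0.33, Zfp593 -0.54, Zfp358 -0.54, Zfp330 -0.605, Zfp91 -0.70, Zfp706 -0.67. In P_ES50 versus P_ES10 the log2 differences were Zfp771 -0.33, Zfp706 -0.54, Zfp593 -0.31, Zfp36 -0.65. In P_ES50 versus ES50 the log2 differences were Zfp580 0.68, Zfp524 0.765, Zfp637 1.28, Zfp717 0.43, Zfp358 1.18, Zfp365 0.495, Zfp414 1.23, Zfp664 1.51, Zfp36l1 2.17. With PE minus without, the difference between steps was Zfp580 0.51, Zfp637 1.01, Zfp524 0.88, Zfp717 0.46, Zfp36l1 2.18. Fitting only the groups compared gave 45 in P_ES50 versus P, 56 in P_ES10 versus P, 66 in P_ES50 versus ES50 and 4 in P_ES10 versus ES10. Over all 11917 tested genes these counts were 4221, 4708, 6289 and 877. Limma voom on recovered reads gave 62, 61 and 42 in P_ES50 versus P, P_ES10 versus P and P_ES50 versus P_ES10, and 14 in P_ES10 versus ES10. The voom counts over all 11917 tested genes were 5048, 5090, 4415 and 1363. Thinning to equal nuclear depth gave 13, 9, 11 and 0 in these 4 comparisons and 43 for the difference between steps, since fewer reads are left. Of 11883 tested genes, thinning left 1524, 1232, 1265, 25 and 4963 called. Without the ES50 libraries in the fit, an alternative chosen after seeing the data, the 4 counts were 65, 58, 51 and 7. Over all 11917 tested genes they were 5382, 4716, 4824 and 1100. In P_ES10 versus ES10 the count was 1 with a pseudocount of 0.1, with no filter and with scaling to nuclear reads. Over all tested genes it was 188 of 11917, 203 of 21906 and 203 of 11917 in that order. Leaving out 1 library at a time gave 101 to 114 in ES50 versus ES10, 16 to 24 in P_ES50 versus P, 14 to 17 in P_ES10 versus P, 18 to 25 in P_ES50 versus P_ES10, 89 to 113 in P_ES50 versus ES50, 1 to 1 in P_ES10 versus ES10 (each of its 6 libraries) and 77 to 99 for the difference between steps; in P_ES50 versus P the counts of 18, 18, 16 and 18 were without P_ES50 replicates 2 and 3 and P replicates 2 and 3. The replicate block gave 107, 27, 19, 23, 103, 1 and 84 in the order of the first sentence. Of all 11917 tested genes the block called 8832, 3296, 2628, 2695, 8289, 181 and 7060. Residuals of libraries with the same replicate number had correlations of -0.088 to 0.101 over 45 pairs, 1 of them over 0.1, so the numbers were not taken to pair libraries. The described median of ES50 versus NC was -0.47 with a pseudocount of 0.1, -2.20 with scaling to all reads, -0.47 to nuclear reads and 0.039 after quantile normalization; that of ES10 versus NC was -0.057 with all reads and -0.11 with nuclear reads, and that of P versus NC 0.12 with all reads. The cause of these shifts was not tested. The low nuclear depth of ES50 libraries limits what can be said of low genes there.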
